A study of Mus musculus with 10 samples.

Results

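Cdkn1a, Cdkn1c, Gsn, Klf2 and Klf4 are genes that deacetylase inhibitors often induce in cultured cells, and their transcripts were followed here in whole mouse testis. They were taken by gene symbol from the platform table, which gave 1 probe for each. They are 5 of 8738 genes with values, counted over the 8877 probes that have 1 symbol. RNA came from testes of 9 week old male Balb-c mice killed after a single subcutaneous dose of trichostatin A (TSA), dissolved in dimethylsulfoxide and PBS. The 15 animals formed 5 groups of 3. A carrier group was sampled at 10 h, and 4 groups given 60 µg of TSA per animal were sampled at 2.5, 5, 7.5 and 10 h. Each group's RNA was combined into 1 pool and hybridised to a pair of single-colour CodeLink arrays, which are technical duplicates. Differences between animals were therefore not measured, and the carrier was matched in hour to the 10 h pool alone.

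TSA blocks the zinc-dependent histone deacetylases, so that acetyl groups build up on histones and other proteins. Cdkn1a encodes p21, which inhibits cyclin-dependent kinases and stops the cell cycle in G1, and its induction is a standard readout of these compounds in cell lines, where it runs through GC boxes bound by Sp1 and Sp3 near the transcription start. Cdkn1c encodes p57, a related inhibitor that is imprinted and expressed from the maternal allele. Gsn encodes gelsolin, which severs and caps actin filaments and also exists as a secreted plasma form. Klf2 and Klf4 encode zinc finger transcription factors that bind GC-rich and CACCC elements. Klf2 is known from quiescent endothelium and T cells, and Klf4 from pluripotent cells, epithelia and, in the testis, Sertoli cells and spermatids.

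The sequences before the transcription starts are shown because GC boxes are the element through which the response of Cdkn1a is described. RefSeq (GRCm38.p6) listed 7 starts for 4 of the 5 genes, and Cdkn1c was not in that table. The 250 bases before a start are printed 5′ to 3′. Capitals mark matches to the GC box (GGGCGG on either strand), to the MEF2 site and to the p53 decamer (RRRCWWGYYY). There R is A or G, W is A or T and Y is C or T. The decamer is a part of the p53 element, and the whole element was not searched.
Cdkn1a, upstream start (chr17:29090729-29090978, + strand): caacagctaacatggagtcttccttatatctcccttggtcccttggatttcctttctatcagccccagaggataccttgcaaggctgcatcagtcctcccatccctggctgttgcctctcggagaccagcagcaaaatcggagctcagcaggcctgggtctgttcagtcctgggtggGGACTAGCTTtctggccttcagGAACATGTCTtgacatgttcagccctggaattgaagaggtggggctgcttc
Cdkn1a, downstream start (chr17:29093519-29093768, + strand): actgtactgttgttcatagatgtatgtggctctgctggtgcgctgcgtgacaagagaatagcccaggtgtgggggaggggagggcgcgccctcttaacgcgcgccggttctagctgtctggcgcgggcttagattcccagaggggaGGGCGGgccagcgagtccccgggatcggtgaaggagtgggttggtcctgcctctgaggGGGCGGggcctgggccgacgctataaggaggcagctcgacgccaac
Gsn, first of 3 starts (chr2:35256109-35256358, + strand): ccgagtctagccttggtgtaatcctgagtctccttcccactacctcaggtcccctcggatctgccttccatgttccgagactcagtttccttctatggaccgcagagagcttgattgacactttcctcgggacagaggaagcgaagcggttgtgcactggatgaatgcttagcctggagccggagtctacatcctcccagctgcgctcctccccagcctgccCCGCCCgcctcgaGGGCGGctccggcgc
Klf2 (chr8:72318812-72319061, + strand): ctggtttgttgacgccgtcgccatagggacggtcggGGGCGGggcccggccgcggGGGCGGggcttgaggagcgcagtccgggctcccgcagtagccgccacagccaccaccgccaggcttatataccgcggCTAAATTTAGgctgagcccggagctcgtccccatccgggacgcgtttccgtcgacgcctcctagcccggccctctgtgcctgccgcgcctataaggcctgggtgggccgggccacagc
Klf4 (chr4:55532476-55532725, - strand): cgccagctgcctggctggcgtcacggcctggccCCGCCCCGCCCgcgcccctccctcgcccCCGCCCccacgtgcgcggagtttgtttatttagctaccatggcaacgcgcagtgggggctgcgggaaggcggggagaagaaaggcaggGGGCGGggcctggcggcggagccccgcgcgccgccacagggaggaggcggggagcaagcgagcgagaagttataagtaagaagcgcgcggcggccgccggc
The downstream start of Cdkn1a held 2 GC boxes and a TATAA element 25 to 21 bases before the start. The upstream start of Cdkn1a held no GC box and 2 matches to the p53 decamer, at 73 to 64 and 51 to 42 bases before it. Klf2 held 2 GC boxes and a MEF2 site, Klf4 held 3 GC boxes that do not overlap, and the starts of Gsn held 2, 1 and 1. A GC box was present in 32.7% of the 32851 windows of this length in the table, and 7.56% held 3 or more. The p53 decamer was matched in 7.13% of windows and the MEF2 site in 2.92%. GC content was 64.8% at the downstream start of Cdkn1a, 71.2% at Klf2 and 74.0% at Klf4, against a median of 52.4% over all windows. These matches describe the letters of the windows and do not show binding.

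The tissue was checked against its markers before the genes were read. Germ cell transcripts were among the brightest on the arrays, with mean intensities of 209 for Ldhc, the germ cell lactate dehydrogenase, and 192 for Tnp1, a transition protein of spermatid chromatin. Leydig cell enzymes were present too, with Cyp17a1 at 93.5. Intensities are the deposited normalised values, whose median over an array is 1.00. The 5 h pool stood apart in one respect, since the summed intensity of 13 measured liver transcripts was 186 there, against 8.65 in the carrier pool and 9.17 to 11.9 in the other TSA pools. The folds of the 5 genes over the TSA pools are therefore also given with the 5 h pool left out, which was not done for the related genes other than Vil1 and Trp53inp1.

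All 5 genes were measured well above the dim end of the arrays. Klf4 was the brightest, at a mean intensity of 31.0, above 93.5% of the 7422 probes that passed the filter on dim probes. Gsn stood at 15.3, Klf2 at 11.9 and Cdkn1c at 11.5. Cdkn1a was the dimmest at 2.95, which was still above 58.4% of tested probes. Intensities of different probes are not a scale of transcript number, so these values place each probe only within the range of the array.

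Of the 5 genes, none changed by 2-fold at any hour and none passed a test. The largest difference from carrier was 1.43-fold, for Cdkn1c at 5 h. Cdkn1c, Gsn and Klf2 stood between 1.2-fold and 1.43-fold above the carrier pool in every TSA pool, although centring by probe ID number, described below, took Klf2 to log2 folds of 0.06 to 0.23, whereas Cdkn1a and Klf4 stood highest at 2.5 h and near the carrier level at 10 h. Differences are given below as log2 folds, the mean of the 2 TSA arrays minus the mean of the 2 carrier arrays, with a standard error from the duplicate arrays. That error holds the noise between arrays and no difference between animals. It rests on 2 arrays a pool, so a very small error can come from a close pair of readings. Over all tested probes the standard deviation between duplicate arrays was 0.093 to 0.16 log2 units by pool.

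**Figure D1:**
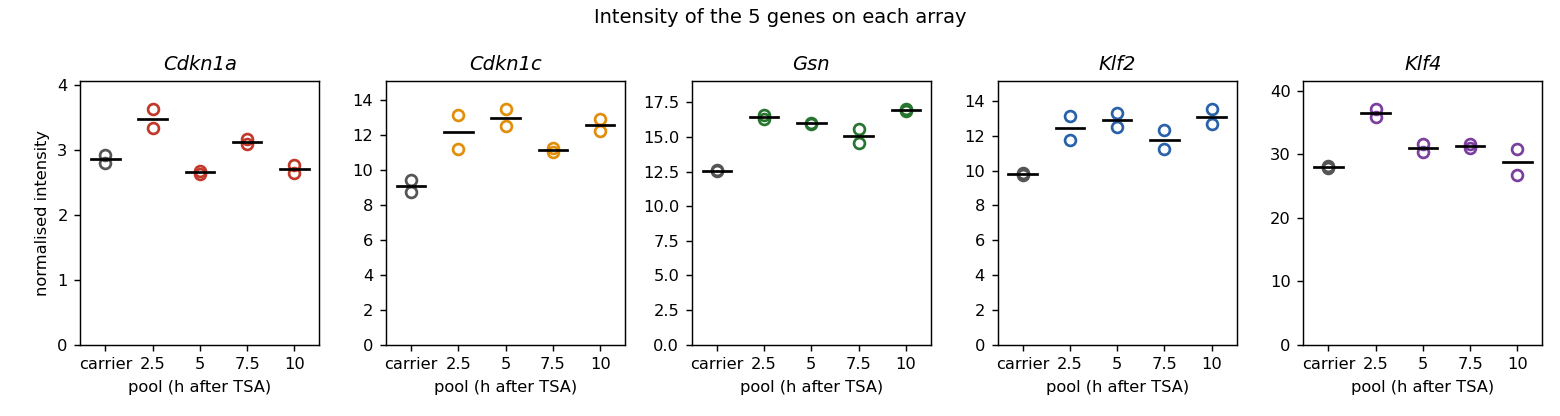
Normalised intensity (vertical axes, linear and starting at 0) of the 5 genes on each of the 10 arrays, by pool. Open circles are single arrays, horizontal bars are pool means and grey circles are the carrier pool. Every TSA array of Cdkn1c, Gsn and Klf2 lies above both carrier arrays, while the arrays of Cdkn1a lie above them at 2.5 and 7.5 h and below them at 5 and 10 h.

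Cdkn1a, the p21 gene, had intensities of 2.92 and 2.79 on the carrier arrays. It read 3.34 and 3.62 at 2.5 h, 2.68 and 2.63 at 5 h, 3.08 and 3.17 at 7.5 h, and 2.77 and 2.64 at 10 h. The 2.5 h and 7.5 h arrays were above both carrier arrays and the 5 h and 10 h arrays were below both, so the readings went up and down between hours with no common direction. The log2 fold was 0.28 ± 0.067 at 2.5 h, or 1.22-fold, and it exceeded that of 80.8% of tested probes. It was -0.11 ± 0.035 at 5 h, 0.13 ± 0.037 at 7.5 h and -0.08 ± 0.046 at 10 h, the hour at which the carrier group was killed. Over the 4 TSA pools the log2 fold was 0.06 ± 0.17 (limma, adjusted p = 0.859, 0.724 to 0.942 over its alternatives), with 2 of 4 pools higher. It was 0.11 ± 0.18 without the 5 h pool and turned to -0.02 ± 0.14 without the 2.5 h pool. The pools ordered as 2.5 h, 7.5 h, carrier, 10 h and 5 h, and in that order the arrays of neighbours overlapped only between 10 h and 5 h. Arrays were also centred by probe ID number, as described below. Centred on the level of like probes, the log2 folds of Cdkn1a were 0.39, 0.07, 0.05 and -0.04 from 2.5 to 10 h. Centred on their shift, the folds were 0.36, -0.03, 0.07 and -0.06.

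Cdkn1c, the p57 gene, read 9.42 and 8.76 on the carrier arrays. Its arrays read 13.1 and 11.2 at 2.5 h, 12.5 and 13.5 at 5 h, 11.3 and 11.04 at 7.5 h, and 12.9 and 12.2 at 10 h. Every TSA array was above both carrier arrays, and the TSA pools overlapped with their neighbours in level. The log2 folds were 0.42 ± 0.12, 0.51 ± 0.075, 0.30 ± 0.054 and 0.47 ± 0.064 from 2.5 to 10 h, which is 1.33-fold, 1.43-fold, 1.23-fold and 1.38-fold. At 5 h the fold exceeded that of 93.1% of tested probes. Over the 4 TSA pools the log2 fold was 0.42 ± 0.12 (limma, adjusted p = 0.0950), with 4 of 4 pools higher, and it was 0.39 ± 0.14 without the 5 h pool. The standard deviation between the 4 TSA pools was 0.094 and the gap between the carrier and the lowest TSA pool was 0.30 on the log2 scale.

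Gsn, the gelsolin gene, read 12.5 and 12.6 on the carrier arrays, 16.5 and 16.3 at 2.5 h, 16.03 and 15.9 at 5 h, 15.6 and 14.6 at 7.5 h, and 17.0 and 16.8 at 10 h. No TSA array came near the carrier arrays, and none of the 5 pools overlapped in level, with 10 h highest and 7.5 h the lowest of the TSA pools. The log2 folds were 0.38 ± 0.014 at 2.5 h, 0.35 ± 0.007 at 5 h, 0.26 ± 0.049 at 7.5 h and 0.43 ± 0.0083 at 10 h. The time-matched difference at 10 h was 1.35-fold and exceeded that of 84.7% of tested probes. Over the 4 TSA pools the log2 fold was 0.36 ± 0.12 (limma, adjusted p = 0.114), with 4 of 4 pools higher. It was 0.36 ± 0.14 without the 5 h pool, whose liver transcripts were high.

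Klf2 read 9.84 and 9.75 on the carrier arrays. It read 13.1 and 11.8 at 2.5 h, 13.3 and 12.5 at 5 h, 12.3 and 11.2 at 7.5 h, and 12.7 and 13.5 at 10 h. All 8 TSA arrays were above both carrier arrays, and neighbouring TSA pools overlapped. The log2 folds were 0.34 ± 0.079, 0.40 ± 0.045, 0.27 ± 0.069 and 0.42 ± 0.047 from 2.5 to 10 h, the last of which is 1.34-fold. Over the 4 TSA pools the log2 fold was 0.36 ± 0.12 (limma, adjusted p = 0.112), with 4 of 4 pools higher, and it was 0.34 ± 0.14 without the 5 h pool. Centring by probe ID number took it to 0.15 ± 0.12 or 0.17 ± 0.11, depending on how the centre was set. Because Klf2 is known from endothelium, the endothelial markers are given beside it. Their summed intensity over 7 measured markers was 3.77 in the carrier pool and 4.49 to 4.83 in the TSA pools, and 2 of the defining markers, Pecam1 and Cdh5, were below the filter. The tested markers did not move together. Over the TSA pools Eng stood at 0.52 ± 0.12, Tie1 at 0.35 ± 0.18 and Flt1 at 0.26 ± 0.15. Tek stood at 0.04 ± 0.15 and Kdr at -0.18 ± 0.15. The part of endothelial cells in the reading of Klf2 was not tested. In whole tissue, more cells of a type and more RNA per cell cannot be told apart.

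Klf4 read 27.9 and 28.1 on the carrier arrays. It read 37.1 and 35.9 at 2.5 h, 31.6 and 30.3 at 5 h, 31.01 and 31.6 at 7.5 h, and 26.7 and 30.9 at 10 h. The 2.5 h arrays were above all others, those of 5 and 7.5 h lay above the carrier, and the 10 h arrays lay on either side of it. The log2 fold was 0.38 ± 0.024 at 2.5 h, or 1.30-fold, then 0.14 ± 0.031, 0.16 ± 0.015 and 0.04 ± 0.11. Over the 4 TSA pools it was 0.18 ± 0.15 (limma, adjusted p = 0.462), with 4 of 4 pools higher. It was 0.19 ± 0.17 without the 5 h pool, or 0.11 ± 0.12 with the 2.5 h pool left out instead. Centring by probe ID number, described below, took the fold over the TSA pools to 0.12 ± 0.16 or 0.06 ± 0.15. The 10 h fold of Klf4 was then -0.03 ± 0.093 or -0.11 ± 0.082. The summed intensity of 7 germ cell markers listed for spermatids was 713 in the carrier pool, 734 at 2.5 h and 739 to 778 later. That of 9 Sertoli markers was 20.4 in the carrier pool and 21.1 to 23.0 in the TSA pools. Both sums were carried by their brightest probes. Of the spermatid list, Pgk2 stood at -0.42 ± 0.13 over the TSA pools while Acrv1 stood at 0.55 ± 0.13. The part of these cells in the reading of Klf4 was not tested.

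**Figure D2:**
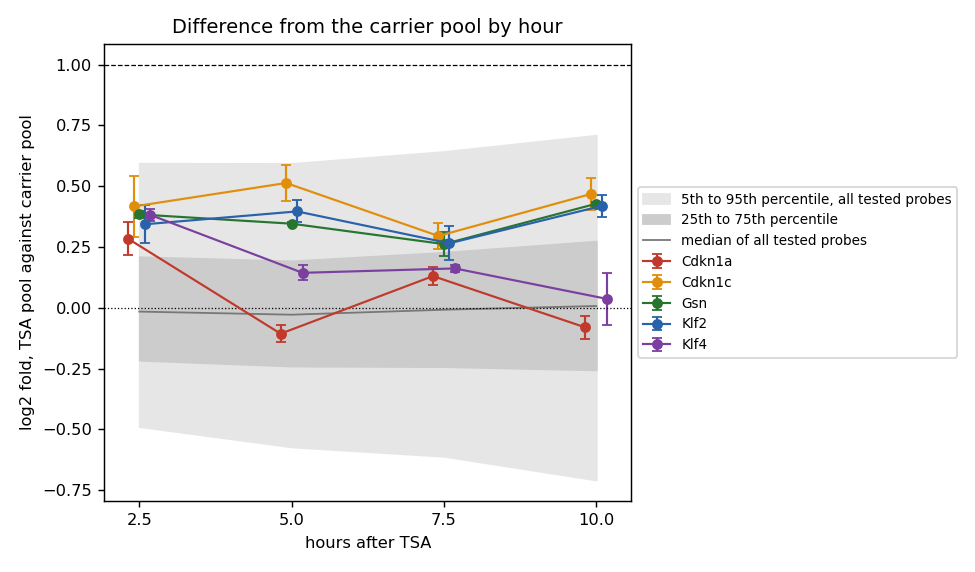
Log2 fold of each TSA pool against the carrier pool (vertical axis) by hours after TSA. Coloured points are the 5 genes with the standard error of the duplicate arrays, shifted sideways for sight, shaded bands are percentiles of all 7422 tested probes, and the dashed line marks 2-fold. The points lie below the dashed line and within the 5th to 95th percentile band at each hour.

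Counted by hour, the genes were read against all tested probes. At 2.5 h both arrays were above both carrier arrays for 5 of 5 genes, as they were for 35.5% of tested probes. At 5 h it was 4 of 5, against 35.8%, with Cdkn1a below the carrier as were 42.8% of probes. At 7.5 h it was 5 of 5, against 36.5%. At 10 h it was 3 of 5, against 39.8%, with Cdkn1a below as were 38.6%, and the arrays of Klf4 on both sides. The 4 comparisons share the carrier arrays, so they are not independent of each other. The median log2 fold of the 5 genes was 0.38, 0.35, 0.26 and 0.42 from 2.5 to 10 h, whereas that of all tested probes was -0.02, -0.03, -0.01 and 0.01. Centring by probe ID number, described below, lowered the median of the 5 genes from 5 h on. It was 0.39, 0.21, 0.16 and 0.14 with arrays centred on the level of like probes, and 0.36, 0.23, 0.19 and 0.19 with arrays centred on their shift.

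A fold of at least 2 with both arrays beyond both carrier arrays was met by 0 of 5 genes at each hour, and by 0.916%, 1.55%, 1.91% and 2.67% of tested probes from 2.5 to 10 h. Split by direction, 0.674%, 1.21%, 1.01% and 1.23% of probes met it as higher and 0.243%, 0.337%, 0.903% and 1.44% as lower, against 0 of 5 genes in each case. With a limit of 1.5-fold it was 0 of 5 as well, against 7.57%, 9.84%, 11.8% and 16.5% of probes. The test of the TSA pools against the carrier (limma with Benjamini-Hochberg adjustment over 7422 probes) called 0 of 5 genes and 3.53% of probes, 2.74% higher and 0.795% lower. At an unadjusted p under 0.05 it took Cdkn1c, Klf2 and Gsn, which is 3 of 5, all higher, and 14.7% of tested probes as higher and 13.7% as lower. The trend over hours, with the carrier at 0 h, called 0 of 5 genes and 2.01% of probes, 0.35% rising and 1.66% falling, and 0 of 5 had an unadjusted p under 0.05. The slopes of Cdkn1c, Klf2 and Gsn were 0.033 ± 0.02, 0.03 ± 0.017 and 0.029 ± 0.017 log2 units per hour, with limma adjusted p of 0.346, 0.309 and 0.331. With a term for TSA in the fit, which takes out the step from carrier to TSA, they were -0.0026, 0.0038 and 0.0019. Cdkn1a and Klf4 had slopes of -0.013 ± 0.019 and -0.0059 ± 0.019 (limma, adjusted p = 0.725 and 0.873). A p over the threshold does not show that levels were equal, and the test takes the lone carrier pool to vary like the TSA pools.

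The calls of the TSA comparison depended on the replicate and on how variances were moderated. With the 10 arrays as replicates, which counts technical duplicates as samples, Cdkn1c, Gsn and Klf2 were called (limma, adjusted p = 0.00440, 0.00290 and 0.00519), as were 35.8% of tested probes. With the pool as a random block Gsn alone of the 5 was called (limma, adjusted p = 0.0292), with 14.1% of probes. With the pools as replicates and limma's trend and robust moderation, Cdkn1c and Gsn were called (adjusted p = 0.0363 and 0.0483), with 10.7% of probes. Over all alternatives the adjusted p ran from 0.00440 to 0.174 for Cdkn1c, 0.00290 to 0.196 for Gsn and 0.00519 to 0.472 for Klf2.

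Probes of like ID number shifted together between arrays, and Klf2 lay among probes that stood higher in the TSA pools. The 198 probes with ID numbers from 10 to 255, among which Klf2 is number 253, had median log2 folds of 0.30, 0.18, 0.07 and 0.21 from 2.5 to 10 h. The probes around Klf4 had medians of 0.14, 0.12, 0.07 and 0.15, and those around Gsn lay between -0.03 and 0.003. Those around Cdkn1a had medians of -0.15, -0.11, 0.08 and -0.0004, and those around Cdkn1c 0.05, -0.08, -0.12 and 0.02. Arrays were first centred on the median level of probes of like ID number. Klf2 then stood at 0.08 ± 0.045, 0.21 ± 0.02, 0.16 ± 0.015 and 0.14 ± 0.017 at the 4 hours and at 0.15 ± 0.12 over the TSA pools (limma, adjusted p = 0.472), in place of 0.36. Gsn and Cdkn1c moved up, to 0.49 ± 0.12 and 0.50 ± 0.15 (limma, adjusted p = 0.0859 and 0.114), and Cdkn1a at 5 h changed sign, to 0.07 ± 0.044.

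The median level of a group of probes also moves with the spread of their brightness, so a further centring, chosen after seeing the data, used the median of each probe's deviation from its own mean over the arrays. Klf2 stood at 0.06 ± 0.047, 0.23 ± 0.018, 0.19 ± 0.039 and 0.19 ± 0.015 from 2.5 to 10 h under it, and at 0.17 ± 0.11 over the TSA pools (limma, adjusted p = 0.373). Gsn stood at 0.34 ± 0.11 and Cdkn1c at 0.44 ± 0.12 (limma, adjusted p = 0.112 and 0.0859), so the upward move of Gsn under the first centring was not seen with the second. Cdkn1a stood at 0.36 ± 0.02 at 2.5 h and -0.03 ± 0.012 at 5 h, keeping the sign it had without centring. Klf4 stood at 0.24 ± 0.068 at 2.5 h and -0.11 ± 0.082 at 10 h. Both arrays were above both carrier arrays for 5, 5, 4 and 3 of 5 genes from 2.5 to 10 h under the first centring, against 36.9%, 37.1%, 36.8% and 40.6% of probes. They were so for 5, 4, 5 and 3 of 5 under the second, against 37.5%, 39.1%, 37.6% and 39.4%.

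**Figure D3:**
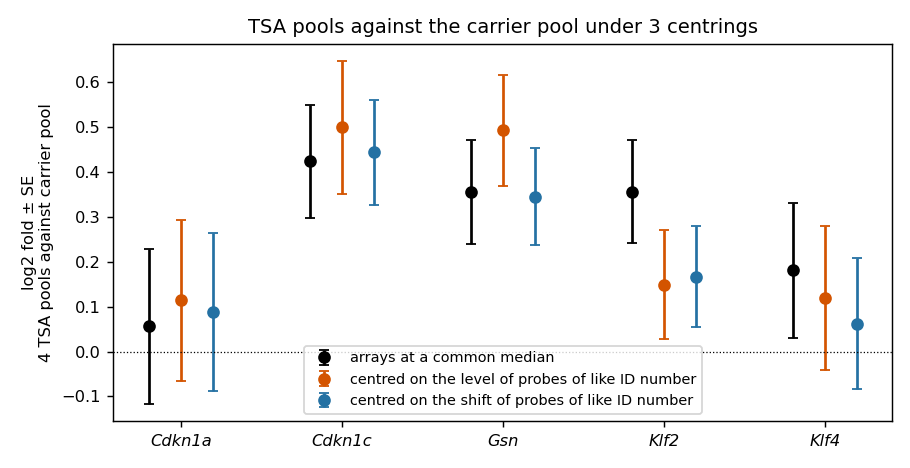
Log2 fold of the 4 TSA pools against the carrier pool (vertical axis, points with limma standard errors) for the 5 genes. Black points are arrays set to a common median, orange points are arrays centred on the level of probes of like ID number, and blue points are arrays centred on the shift of those probes. Klf2 goes from 0.36 to 0.15 and 0.17, while Gsn goes from 0.36 to 0.49 and 0.34.

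Genes were then sought whose pool means followed each of the 5 most closely, by the Euclidean distance between log2 pool means over the 5 pools after each probe was centred on its own mean. Gsn and Klf2 were close to each other, at a distance of 0.065, and Cdkn1c lay 0.089 from Klf2 and 0.13 from Gsn. Cdkn1a lay 0.19 from Klf4 and 0.45 to 0.55 from the other three. Among the 6659 other probes with 1 symbol, the nearest to Cdkn1a was Hspa1a, an inducible heat shock protein gene, at 0.047, followed by Sel1l3 and Magee1. The nearest to Klf4 was Slc4a2, an anion exchanger gene, at 0.026, followed by Tmem179b and Tial1. Vamp8, Akt1 and Mif were nearest to Cdkn1c, at 0.053 to 0.083. The nearest to Gsn were the ribosomal protein genes Rpl38 and Rps27 and 4930449I24Rik, and the nearest to Klf2 were Tmsb4x, Rpl38 and Gsn. Tmsb4x encodes thymosin beta 4, which binds actin monomers. All probes share the same 5 pools, so nearness is a description of them. The distances were taken without centring by probe ID number, which lowered Klf2. With arrays centred on the level of like probes, Gsn stood at 0.51, 0.42, 0.47 and 0.57 from 2.5 to 10 h. Klf2 then stood at 0.08, 0.21, 0.16 and 0.14. The nearness of Klf2 to Gsn and the other genes therefore holds for the values without that centring.

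Relatives of the 5 genes came from lists written for this purpose. Among 5 other cyclin-dependent kinase inhibitors, Cdkn2c (p18) and Cdkn2d (p19) passed the filter and 0 of 2 passed either limma test. Cdkn2d stood at -0.16, -0.50, -0.40 and -0.60 from 2.5 to 10 h (TSA pools, limma adjusted p = 0.177), and Cdkn2c at -0.07 to -0.17. Cdkn2a was measured below the filter. Of 13 tested G1 and S phase partners of p21 and p57, 0 passed, with a median log2 fold over the TSA pools of -0.002 against -0.018 for all tested probes. Cdk4, the kinase paired with D cyclins, had the largest value of them at 0.44 ± 0.12 (limma, adjusted p = 0.0794), and Ccnd3, which encodes cyclin D3, stood at -0.32 ± 0.17.

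The other Klf and Sp factors gave 10 tested probes for 9 genes, of which 0 passed either test. Klf7 stood highest, at 0.43 ± 0.13 over the TSA pools (limma, adjusted p = 0.0916), and Klf13 followed the course of Klf4 at 0.52, 0.24, 0.21 and -0.05 from 2.5 to 10 h. Klf10, a TGF-beta induced factor, stood at 0.33 ± 0.12, Klf5 at 0.14 ± 0.17, Klf12 at 0.11 ± 0.19 and Sp4 at 0.07 ± 0.14. The 2 probes of Klf9 disagreed, with -0.15 ± 0.11 for probe 5836 and 0.31 ± 0.14 for probe 10529. Sp1 and Sp3, the factors that bind the GC boxes of Cdkn1a, stood at 0.18 ± 0.13 and -0.04 ± 0.13. The median over these 10 probes was 0.16.

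Of the gelsolin family and other actin regulators 6 probes were tested, and Vil1, the villin gene, alone met the threshold (0.71 ± 0.14, limma, adjusted p = 0.0485). Its intensity was 0.249 to 0.300 in the TSA pools and 0.160 in the carrier pool, below the filter's mean of 0.207, so it entered the test through the TSA pools and its call is not support for a rise. Dstn, which encodes the actin depolymerising factor destrin, stood at 0.53 ± 0.11 (limma, adjusted p = 0.0506). Tmsb4x stood at 0.31 ± 0.12, and Pfn1, Pfn2 and Cfl2 between -0.07 and 0.09. Capg, Scin and Avil, nearer relatives of gelsolin, were below the filter.

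Among 6 tested p53 targets besides Cdkn1a, Trp53inp1 rose in the TSA pools by 0.72 ± 0.12 (limma, adjusted p = 0.0474). Zmat3, which encodes a p53-induced RNA-binding protein, stood at 0.49 ± 0.11 (limma, adjusted p = 0.0557), and Mdm2, the p53 ubiquitin ligase, at -0.01, 0.39, 0.30 and 0.52 from 2.5 to 10 h. Phlda3 stood at 0.25 ± 0.18, Ccng1 at 0.02 ± 0.12, and Fas, which encodes a death receptor, at -0.38 ± 0.14. Fas read 0.269 in the carrier pool and 0.186 to 0.225 in the TSA pools, around the filter's mean of 0.207. It thus passed the filter with the help of the carrier pool, and its value is not support for a fall. The calls of Vil1 and Trp53inp1 ended in 16 of 24 and 13 of 25 alternatives. These included leaving out any single TSA pool (limma, adjusted p = 0.0600 to 0.110 for Vil1 and 0.0598 to 0.110 for Trp53inp1), either array at 2.5, 7.5 or 10 h, or the second array at 5 h. Both calls also ended with arrays centred on the level of probes of like ID number, where Vil1 stood at 0.46 ± 0.16 and Trp53inp1 at 0.81 ± 0.13 (limma, adjusted p = 0.146 and 0.0542). With arrays centred on the shift of those probes the call of Vil1 ended (0.61 ± 0.12, limma, adjusted p = 0.0575) and that of Trp53inp1 was kept (0.70 ± 0.11, limma, adjusted p = 0.0404).

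Among 6 tested genes of the imprinted cluster around Cdkn1c, 0 passed the limma tests. Nap1l4, which encodes a nucleosome assembly protein, met the 2-fold limit at 7.5 h (-1.07 ± 0.05) and 10 h (-1.001 ± 0.073) and stood at -0.89 ± 0.18 over the TSA pools (limma, adjusted p = 0.0521). Its 10 h value stood at -0.97 without the second carrier array and -0.93 without the first 10 h array, and with an offset of 0.1 in place of the floor the values at 7.5 and 10 h were -0.99 and -0.93. Igf2, the growth factor gene, stood at 0.48 ± 0.15, Cd81 at 0.21 ± 0.12, Osbpl5 at 0.25 ± 0.30, Tssc4 at 0.11 ± 0.16 and Slc22a18 at 0.04 ± 0.12. Osbpl5 read 0.182 in the carrier pool, below the filter's mean of 0.207, and passed the filter through the 10 h pool, at 0.316. Its value is therefore not support for a rise. Of 8 tested regulators of Cdkn1a, Zbtb17 met the limit at 7.5 h (-1.38 ± 0.60), with duplicate arrays far apart, and stood at -0.83 without the second array of that hour. Hdac1 and Hdac2 stood at 0.13 ± 0.13 and -0.05 ± 0.12 over the TSA pools, and Hdac3 at -0.37 ± 0.12 (limma, adjusted p = 0.120).

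Other genes often reported to rise with deacetylase inhibitors gave 14 tested probes, of which 0 passed and whose median log2 fold over the TSA pools was 0.062. Mt2, a metallothionein gene, and Timp3, an inhibitor of matrix proteases, stood at 0.32 ± 0.0094 and 0.36 ± 0.029 at 2.5 h and between -0.09 and 0.04 later. Tgfbr2, a TGF-beta receptor gene, stood at 0.39 ± 0.17 over the TSA pools, and Gadd45a, Gadd45b and Gadd45g, genes of the growth arrest response, at -0.26 ± 0.12, -0.31 ± 0.35 and -0.33 ± 0.17. Genes often reported to fall gave 9 tested probes with 0 passing and a median of 0.20. Ezh2, a histone methyltransferase gene, stood at 0.60 ± 0.14 (limma, adjusted p = 0.0687) and Ctps at 0.42 ± 0.12. In the pathway of Klf2, 0 of 7 tested genes passed. Map2k5, a kinase upstream of Klf2, stood at -0.49 ± 0.24, and Thbd, the thrombomodulin gene that Klf2 activates in endothelium, at 0.42 ± 0.15. The intensity of Thbd was 0.175 in the carrier pool, below the filter's mean of 0.207, and 0.212 to 0.264 in the TSA pools. It thus entered the test through the TSA pools, and its value is not support for a rise.

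**Figure D4:**
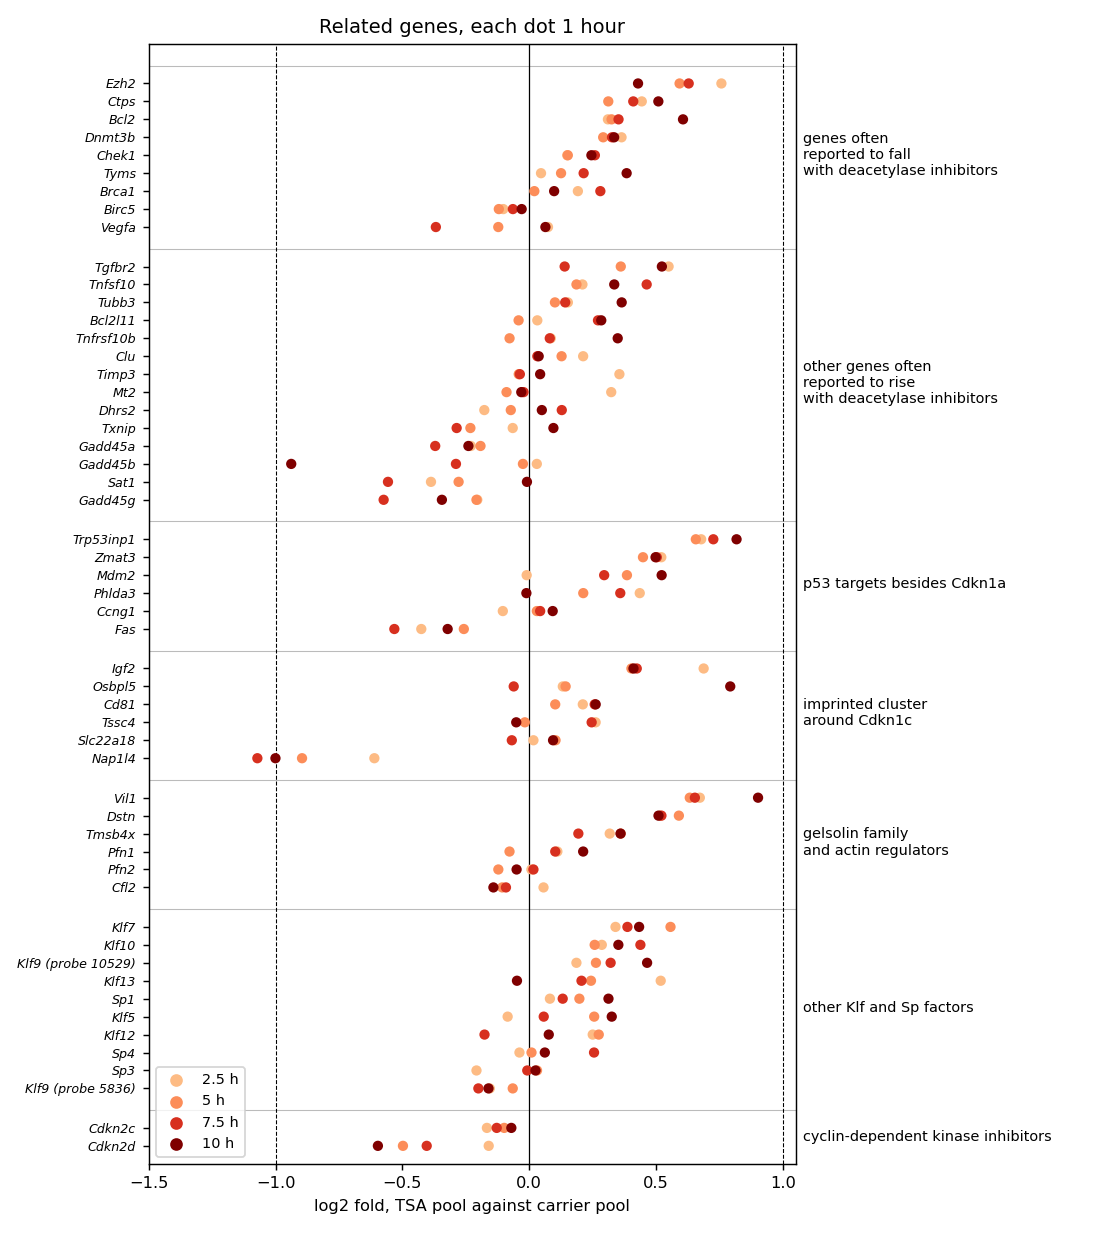
Log2 fold against the carrier pool (horizontal axis) for tested probes of 7 related lists, with 1 dot for each of 2.5, 5, 7.5 and 10 h, from light to dark. Dashed lines mark 2-fold. Nap1l4 reaches the lower line at 7.5 and 10 h, and Vil1 and Trp53inp1 lie at or above 0.63 at each hour.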

How the data were processed

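The authors deposited 1 table of normalised intensity values for 10012 probes on 10 arrays. The sorted values were identical on all arrays (largest difference 0), so quantiles had been equalised before deposit. The scanner, the background correction and the program that did this were not given in the sources used here. Probes missing on every array (115) were left out. Intensities under the 5th percentile were set to that percentile (0.0364), turned to log2 and shifted to a common median, and the dimmest 25% by mean were dropped, which left 7422 probes. Symbols came from the platform annotation.

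Duplicate arrays were averaged, and limma 3.58.1 in R 4.3.3 was fitted on the 5 pool means over all tested probes, leaving 3 residual degrees of freedom, with two-sided p-values adjusted by Benjamini-Hochberg at 0.05. The lone carrier pool was taken to vary like the TSA pools. Single hours were read by the 2-fold rule, with no p-value. The methods were tested on simulated data. In those data the carrier pool varied like the TSA pools, so they could not test that assumption. Their changed probes were set at 2-fold or more, and probes of like ID number had no shared shift. The simulated data therefore did not test changes as small as those of the 5 genes, nor such shifts. Figures used matplotlib 3.10.9 in Python 3.11.15. For arrays no counting depth applies, and their number limits the precision.

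Named were the 5 genes, the genes of each list that met the size rule or passed a test, the 2 list members with the largest mean folds and, for kinase inhibitors, Klf, Sp, gelsolin and Cdkn1c cluster genes, any member, and the 3 nearest patterns to each gene. Marker lists were an exception, as not all of their genes under this rule were named. The 9 tested liver markers all met the size rule and are given only in their list's sum. Outside this rule, Mdm2, Ccng1, Fas, Phlda3, Pgk2, Acrv1, Eppin, Mt2, Timp3, Gadd45a, Gadd45b, Hdac1, Hdac2, Ldhc, Tnp1, Cyp17a1, Pecam1 and Cdh5 were named after their values were seen. So were Flt1, Tek and Kdr. The 5 genes and all lists were chosen with earlier results of these data known. Motifs were searched on both strands, and overlapping matches to 1 motif were counted once. Lists of spermatogonia, spermatocyte, peritubular, macrophage, epididymis, blood and fat markers were also read. No list's call is used as support for a cell type.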

Additional observations from a re-analysis of the deposited data

How the results depend on the processing

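The count of the 5 genes that met the size rule was 0 under every alternative run, from a limit of 3-fold to 1.5-fold, and 0 also with each array left out, from 0 to 0. The count of tested probes meeting it ran from 12 to 562 at 2.5 h (68 as reported), 27 to 730 at 5 h (115), 16 to 876 at 7.5 h (142) and 29 to 1221 at 10 h (198), widest between limits of 3-fold and 1.5-fold. For the TSA pools against the carrier, 3 of the 5 genes were called with the 10 arrays as replicates (2660 probes in all), 3 with a replicate block (2388), 1 with the pool as a random block (1044) and 2, Cdkn1c and Gsn, with trend and robust moderation (795), in place of 0 (262). Otherwise it was 0 of the 5. Over all probes, 3 to 7 were called with any TSA pool left out, 1 with no filter, and 9 or 204 after centring on the level or the shift of probes of like ID number, the latter chosen after seeing the data. The trend called 0 of the 5 under every alternative, and 0 to 2353 probes in all (149 as reported). Signs turned for values near 0. The fold of Cdkn1a over the TSA pools was -0.019 without the 2.5 h pool, and its slope was 1.39e-05 without the 10 h pool. The slope of Cdkn1c was -0.00258 without the carrier pool and the same with a term for TSA. That of Klf4 ran from -0.0143 to 0.00249 with single arrays left out, turning without the first 10 h array, and was 0.0068 with no 2.5 h pool and 0.00988 with no 10 h pool. The causes were not tested. Replicate numbers did not pair the arrays, since the correlation of their deviations from pool means ran from -0.187 to 0.14 over the 10 pool pairs. Without the carrier pool the TSA comparison could not be made.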

Other observations

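Summed intensities of the remaining marker lists, carrier pool first and then the range over the TSA pools, were 124 and 122 to 149 for 6 Leydig markers, 20.3 and 15.5 to 20.8 for 5 peritubular and smooth muscle markers, and 10.6 and 9.35 to 11.6 for 6 macrophage markers. They were 25.1 and 22.5 to 25.1 for 5 spermatogonial markers and 92.1 and 68.8 to 81.4 for 5 spermatocyte markers. For 5 epididymis markers they were 9.17 and 9.25 to 9.67, for 3 blood markers 18.6 and 16.8 to 19.1, and for 3 fat markers 8.03 and 8.75 to 11.6. Spermatocyte markers were lower in each TSA pool than in the carrier pool, and 0 of 5 passed the limma tests. Of the epididymis markers Gpx5, a secreted glutathione peroxidase gene, rose in the TSA pools by 0.67 ± 0.12 (limma, adjusted p = 0.0474, 0.000228 to 0.125 over its alternatives), a call that ended in 14 of 25 alternatives, among them each that left out a TSA pool. The only other tested marker of that list, Eppin, stood at -0.005 ± 0.11. Eppin read 8.21 in the carrier pool and so carried most of the list's summed intensity. The remaining 3 markers were below the filter. The part of these cell types in the readings of the 5 genes was not tested.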
